A study of Mus musculus with 2 samples.

Results

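The S100 calcium-binding family was described in 2 mouse livers through 9 of its genes, S100a1, S100a4, S100a6, S100a8, S100a9, S100a10, S100a11, S100a13 and S100a16. They were taken by symbol from the gene table of both libraries, which lists 18 genes whose symbol begins with S100 among 32285 genes. All 9 were found in both libraries, and each was followed by cell class within each library. The RNA came from dissociated liver cells measured in droplets by 3′ single-cell sequencing (10x Chromium 3′, version 3 chemistry). One library, labelled E18.5 (late embryonic), came from a liver of an Hhex-knockout host that had received tdTomato-positive 4N (tetraploid) embryonic stem cells at the blastocyst stage. The other, labelled P180 (postnatal day 180), came from a liver of a host made in the same way. Both groups therefore share the Hhex knockout and the injected 4N cells, and there was 1 liver per stage with no diploid or wild-type liver beside it. Strain and sex are not given in the sources used here. Host and donor cells were not told apart, because the gene table holds 0 tdTomato features.

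S100 proteins are small EF-hand proteins: calcium opens a hydrophobic face on the dimer, through which it binds its target. S100a8 and S100a9 pair as calprotectin, which neutrophils store in large amounts and which, once released, binds metal ions and signals through Toll-like receptor 4. S100a10 joins annexin A2 and keeps its target face open without calcium, S100a11 binds annexin A1, and S100a4 binds non-muscle myosin and S100a6 the Siah-interacting protein Cacybp, among others. S100a13 takes part in the release of Fgf1 and Il1a, S100a1 is best known from the heart and skeletal muscle, and the partners of S100a16 are less well described. In liver these genes are known mainly as markers of infiltrating myeloid cells and of reactive bile duct or mesenchymal cells.

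The library labelled E18.5 summed to 37709972 UMIs (molecular barcodes that count captured RNA molecules) over 9871 cell barcodes, and that labelled P180 to 90128038 UMIs over 9771. After filters and removal of likely doublets, 4543 and 8847 cells remained, with median depths of 4726 and 5905 UMIs and median mitochondrial shares of 8.72% and 0.635%. The libraries shared 28 barcodes, of which 11 were among the cells kept in both. Clusters were named from marker genes, with every S100 gene left out of both the clustering and the markers. Both libraries run against their stage labels in part: T cell- and plasma cell-like cells stood under label E18.5, while 6904 of 8847 cells labelled P180 were haemoglobin-rich erythroid-like cells. The libraries are therefore named by their labels throughout. Whether the labels were exchanged was not tested, and an exchange would turn every direction by stage given here. Hhex, the gene knocked out in the host, was at 99.1 CPM (a gene's UMIs scaled to the same total in every class; interval 95.5 to 103) under label E18.5 and 42.7 CPM (41.3 to 44.1) under label P180. The knockout is of the host, and host and donor cells were not told apart. The reads also lie at the 3′ end, which the deletion may leave in place. These levels are therefore no check of the knockout.

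Classes of at least 50 cells numbered 11 under label E18.5 and 7 under label P180. Those present in both, under label E18.5 first, were neutrophil-like (399 and 1067 cells), monocyte-like (173 and 251), dendritic-like (215 and 73), B cell-like (1308 and 201), endothelial-like (1016 and 110) and cholangiocyte-like cells (166 and 98), the last being the cells of bile ducts. T cell- (361), NK cell- (182), macrophage- (159), plasma cell- (111) and mesenchymal-like cells (93) were named at this size under label E18.5 alone, and erythroid-like cells (6904) under label P180 alone. Intervals are at 95%: Poisson for a level, binomial for a share of cells and conditional for a ratio, each exact. They cover counting error only and leave out the spread between cells and between animals, so no test between the stages was possible and no p-value is given. A level sums a gene's UMIs over the cells of a class. Fewer cells of a type and less RNA per cell therefore cannot be told apart in a class that mixes states.

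The 9 genes lie on mouse chromosome 3 in GENCODE mouse release 21 (mm10). From S100a1 (90511034 to 90514392, minus strand) to S100a9 (90692632 to 90695721, minus strand), 7 of them follow in 1 cluster, in the order S100a1, S100a13, S100a16, S100a4, S100a6, S100a8 and S100a9. S100a11 (93520488 to 93526287) and S100a10 (93555080 to 93564643), both on the plus strand, lie 2824766 bases beyond S100a9. S100a1 and S100a13 lie head to head, 42 bases apart in this annotation, while S100a8 and S100a9 point towards each other with 22596 bases between them. RefSeq promoter windows (GRCm38.p6, 250 bases before to 50 after the start) matched 8 of the 9 genes. S100a10 had no entry. The windows of S100a8 and S100a9 are shown because their levels follow each other across classes, that of S100a11 because it too was highest in neutrophil-like cells under both labels, and the stretch between S100a1 and S100a13 because the pair shares it. The windows are chr3:90668821-90669100 (plus strand) for S100a8, chr3:90695692-90695971 (minus strand) for S100a9 and chr3:93520246-93520525 (plus strand) for S100a11, up to base 30 after the start, and the stretch is chr3:90514393-90514434 (plus strand). Sequences run 5′ to 3′, and capitals mark the 5 motifs described next.
S100a8: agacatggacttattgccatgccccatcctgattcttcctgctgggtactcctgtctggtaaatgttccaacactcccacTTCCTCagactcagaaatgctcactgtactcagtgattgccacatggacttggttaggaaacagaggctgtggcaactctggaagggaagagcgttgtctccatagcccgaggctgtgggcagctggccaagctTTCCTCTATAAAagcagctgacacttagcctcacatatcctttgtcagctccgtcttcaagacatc
S100a9: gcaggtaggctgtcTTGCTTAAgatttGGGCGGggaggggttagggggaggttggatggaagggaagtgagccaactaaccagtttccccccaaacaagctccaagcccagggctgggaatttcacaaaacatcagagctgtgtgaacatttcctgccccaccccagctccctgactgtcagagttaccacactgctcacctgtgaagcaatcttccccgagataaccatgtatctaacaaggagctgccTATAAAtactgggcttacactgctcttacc
S100a11: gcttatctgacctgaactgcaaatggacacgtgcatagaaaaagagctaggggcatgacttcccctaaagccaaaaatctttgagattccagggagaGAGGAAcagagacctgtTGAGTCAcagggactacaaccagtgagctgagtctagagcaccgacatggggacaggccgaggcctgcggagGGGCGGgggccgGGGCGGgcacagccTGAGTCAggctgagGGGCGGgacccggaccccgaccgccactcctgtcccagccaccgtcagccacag
S100a1-S100a13: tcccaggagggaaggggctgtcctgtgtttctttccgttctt

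Both strands were searched, and a match is only a match of letters. TATAAA, the TATA box, stood at base -30 of S100a8, at base 1 of S100a9 and at base -31 of S100a4, and 13.6% of 32851 windows of the same length hold it. GAGGAA, a core bound by PU.1 and other ETS factors and shown as its complement where it lies on the other strand, was found at bases -170 and -36 of S100a8, the second directly before its TATAAA, and is held by 28.3% of windows. TTGCNNAA, a C/EBP site, was found at base -236 of S100a9, against 10.8% of windows. The S100a11 window differed from these in having no TATAAA and 2 copies of TGANTCA (AP-1, 7.81% of windows). Its GC content was 61.7% against 50% and 51.3% for S100a8 and S100a9. It also held 1 GAGGAA, at base -153, and 3 copies of GGGCGG (SP1, 35.7% of windows), which the S100a9 window held at base -223. The windows of S100a1, S100a13 and S100a6 held none of the 5 motifs.

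The plot of levels by class shows that the 9 genes were highest in different classes. S100a8 and S100a9 were each far higher in neutrophil-like cells than in any other class, and S100a4 was highest in monocyte-like cells. S100a16 was nearly restricted to endothelial- and cholangiocyte-like cells and, under label E18.5, mesenchymal-like cells. S100a10 had the opposite of the S100a8 pattern: well measured in most classes and almost lacking from neutrophil- and erythroid-like cells. In 6 of the 9 genes the highest of the 6 shared classes was the same in both libraries. The exceptions were S100a1 (cholangiocyte-like under label E18.5, neutrophil-like under label P180), S100a6 (neutrophil-like, then monocyte-like) and S100a13 (endothelial-like, then monocyte-like). For S100a13 under label P180 the intervals of monocyte-like (142 CPM) and endothelial-like cells (130 CPM) overlapped. S100a1 and S100a6 differed widely between the neutrophil-like clusters labelled P180 (given below), so their highest class depends on the mix of these clusters. Levels are compared between classes for 1 gene at a time, since no length correction was made.

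**Figure D1:**
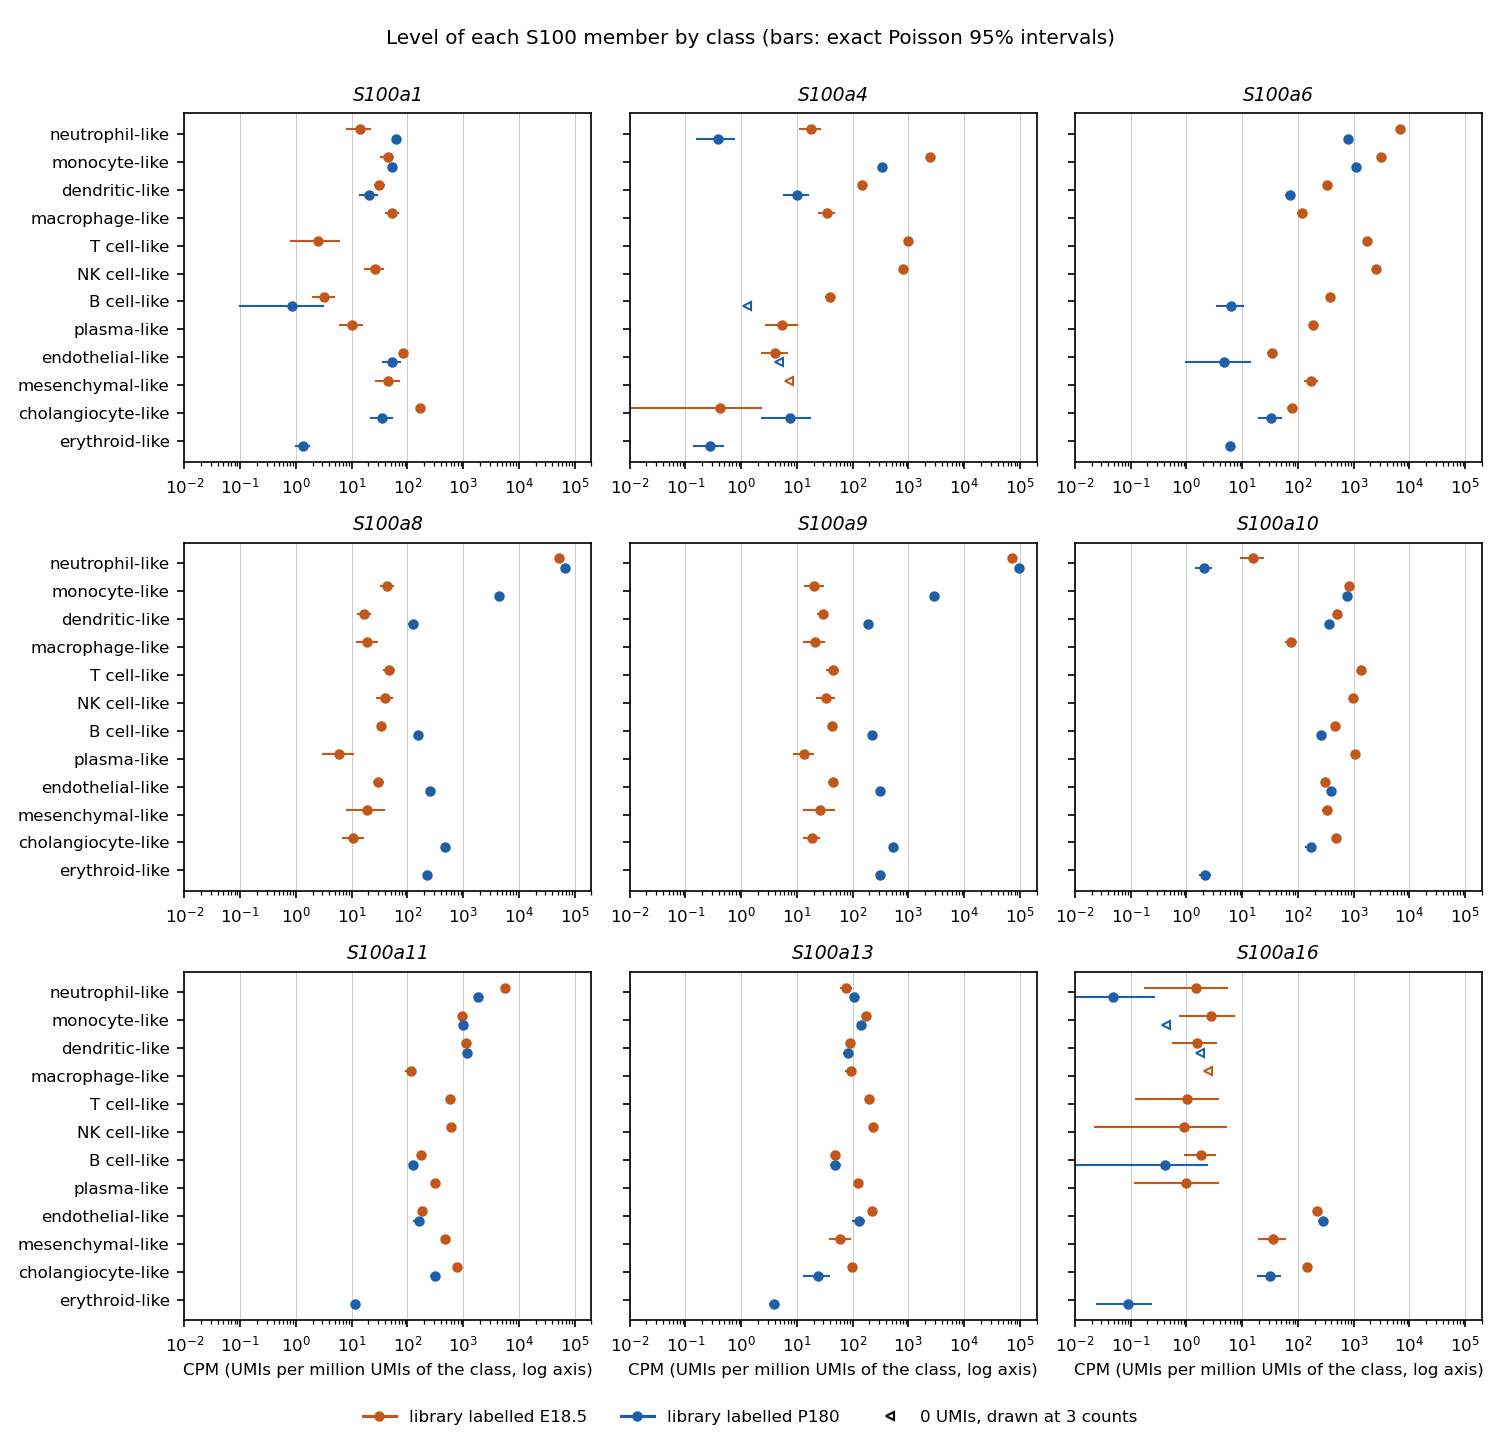
Level of each of the 9 S100 genes (CPM, log axis) in every class of at least 50 cells, under label E18.5 in orange and under label P180 in blue; bars are exact Poisson 95% intervals and open triangles mark classes with 0 UMIs, drawn at 3 counts. S100a8 and S100a9 peak in neutrophil-like cells (52418 to 94762 CPM), where S100a10 is at 15.4 and 2.05 CPM.

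Of 54 pairs of a member and a shared class, 45 had at least 50 UMIs in a library and were compared. The level was at least 2-fold higher under label P180 in 11, at least 2-fold lower in 15 and between these in 19. S100a8 and S100a9 made up 10 of the 11 higher ratios, and S100a6 6 of the 15 lower ones. Of these 10, 6 lie in the endothelial-, dendritic- and B cell-like classes, where background of the library and expression of both genes were not told apart (given with their levels). Over all genes measured the same way, the shares at least 2-fold higher and lower were 23.4% and 18.2% in B cell-like, 7.82% and 43% in cholangiocyte-like, 1.58% and 6.04% in dendritic-like, 4.9% and 10.1% in endothelial-like, 29.6% and 9.01% in monocyte-like, and 35.8% and 18.1% in neutrophil-like cells. Read against these, the 6 lower members of 8 measured in cholangiocyte-like cells stand in a class where lower ratios were common. In dendritic-like cells 4 of 8 members were beyond 2-fold where few genes were, S100a8 and S100a9 higher and S100a4 and S100a6 lower. For S100a8 and S100a9 background was not told apart from expression there. Scaling by the median of ratios in place of total UMIs shifts every log2 ratio of a class by 0.67 in neutrophil-like, -0.29 in B cell-like, -0.20 in cholangiocyte-like and -0.13 in endothelial-like cells, and by under 0.1 in the other classes.

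**Figure D2:**
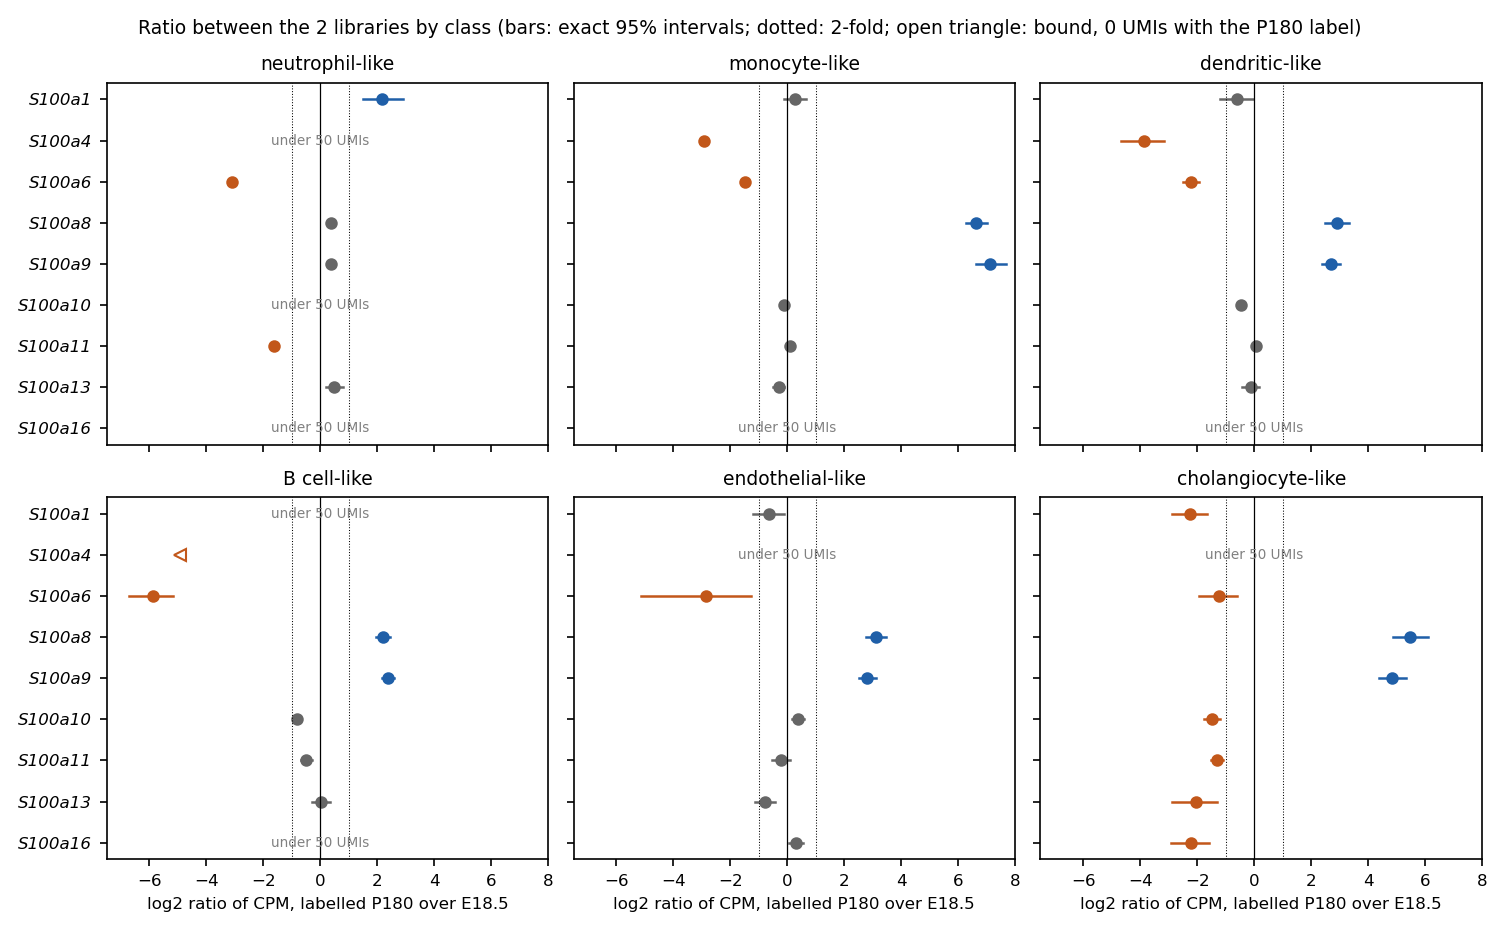
Log2 ratio of CPM, library labelled P180 over that labelled E18.5, for each member in the 6 shared classes; blue is at least 2-fold higher, orange at least 2-fold lower, grey between, bars are exact 95% intervals and the open triangle is a bound for S100a4 with 0 UMIs. S100a6 lies below the lower 2-fold line in all 6 classes, and S100a8 and S100a9 lie above the upper line in all but neutrophil-like cells.

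S100a8 and S100a9 together made up 12.5% of all UMIs of neutrophil-like cells labelled E18.5 and 16.2% of those labelled P180. S100a8 was at 52418 CPM under label E18.5 and 67667 CPM under label P180, a ratio of 1.29 (1.28 to 1.30). S100a9 was at 72721 and 94762 CPM, a ratio of 1.30 (1.29 to 1.31). Both ratios were near the middle of the genes measured in this class, at percentiles 47.5 and 47.9. Scaled by the median of ratios they passed 2-fold, at log2 ratios of 1.04 and 1.06, beside a background in which 53.6% of genes were then higher and 10% lower. With a mitochondrial limit of 10% and the clustering run again, 135 cells labelled E18.5 and 1062 labelled P180 were named neutrophil-like, in place of 399 and 1067. The direction then turned: the log2 ratios were -0.0951 (-0.1085 to -0.0818) for S100a8 and -0.0161 (-0.0277 to -0.0045) for S100a9. The E18.5-labelled clusters of 379 and 20 cells described below had mitochondrial shares of 12.2% and 3.54%, so the limit can change their mix. The part of this was not tested. A neutrophil-like cell carried a median of 96 S100a8 and 151 S100a9 UMIs under label E18.5, and 1238 and 1773 under label P180, at median depths that also differed, 2866 against 16437 UMIs.

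Over the whole neutrophil-like class, which mixes stages, the balance between both subunits of calprotectin was nearly the same in the 2 libraries. Neutrophil-like cells held 1.39 S100a9 UMIs per S100a8 UMI (1.37 to 1.4) under label E18.5 and 1.4 (1.397 to 1.403) under label P180. The log2 of the second over the first was 0.0135 (-0.0007 to 0.0278). Within each library the balance moved with the cluster. It was 1.37 (1.36 to 1.38) in the P180-labelled cluster led by Elane and 1.509 (1.495 to 1.524) in that led by Retnlg, and 1.25 and 1.47 (1.45 to 1.49) in the clusters labelled E18.5 led by Camp and by Retnlg.

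The neutrophil-like class held different stages in the 2 libraries. Granulocytes make primary granule proteases such as Elane and Mpo first, then secondary granule proteins such as Ngp and Camp, and express Retnlg, Il1b and Cxcr2 when mature. Under label P180 there were 4 clusters: 141 cells led by Elane, 429 dividing and 349 scarcely dividing cells led by Ngp, and 148 cells led by Retnlg. Under label E18.5, 379 of 399 cells formed a cluster led by Retnlg and 20 cells a cluster led by Camp. Summed division genes were at 2688 and 211 CPM in the Ngp-led clusters. Summed late genes were at 2902, 12570, 18980 and 34851 CPM in the 4 clusters labelled P180, in that order, and were at 9653 and 21288 CPM in the clusters led by Camp and Retnlg labelled E18.5. The clusters were ordered by these genes and not by a measured time.

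Along this order each S100 gene had its own course. Levels are shares of all UMIs, and median depth fell along the same order. It was 39456, 22568, 11814 and 6675 UMIs in the clusters labelled P180, and 8640.5 and 2842 UMIs under label E18.5. S100a8 was at 35572 CPM in the Elane-led cluster, 78673 and 83685 CPM in the 2 Ngp-led clusters and 62044 CPM in the Retnlg-led cluster, so its share peaked in the middle. In UMIs, the 141 Elane-led cells held 193479 and the 148 Retnlg-led cells 68717. S100a9 followed the same course, at 48800, 108528, 120538 and 93640 CPM. Both were likewise higher in the Camp-led cluster (113384 and 141541 CPM) than in the Retnlg-led one (39872 and 58558 CPM) labelled E18.5, by 2.84-fold (2.80 to 2.89) and 2.42-fold (2.39 to 2.45).

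S100a6 was higher in each later cluster. It was at 13.1, 324, 1769 and 4833 CPM through the clusters labelled P180, a 370-fold span (293 to 475) from the Elane-led to the Retnlg-led cells, and at 3678 and 7380 CPM in the 2 clusters labelled E18.5. S100a11 had the same order, at 1175, 1476, 2762 and 5044 CPM, a 4.29-fold span (4.14 to 4.45), and at 2955 and 6224 CPM under label E18.5. This order is one of shares at falling depth. The 141 Elane-led cells held 6389 S100a11 UMIs and the 148 Retnlg-led cells labelled P180 5586, so UMIs per cell did not rise. Under label E18.5 the 20 Camp-led cells held 855 S100a6 and 687 S100a11 UMIs, and the 379 Retnlg-led cells 8337 and 7031. S100a1 ran the other way, at 139.5, 48.6, 13.3 and 1.81 CPM under label P180, the last from 2 UMIs, and at 77.4 and 0.885 CPM (18 UMIs and 1 UMI) under label E18.5. S100a13 differed less, at 123 and 76.7 CPM in the first and the last cluster labelled P180, and was at 232 and 44.3 CPM in the clusters labelled E18.5. Without the 20 Camp-led cells its ratio over the class was 2.41 (1.82 to 3.26), past 2-fold. S100a4, S100a10 and S100a16 stayed at or under 30.1 CPM in all 6 clusters.

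**Figure D3:**
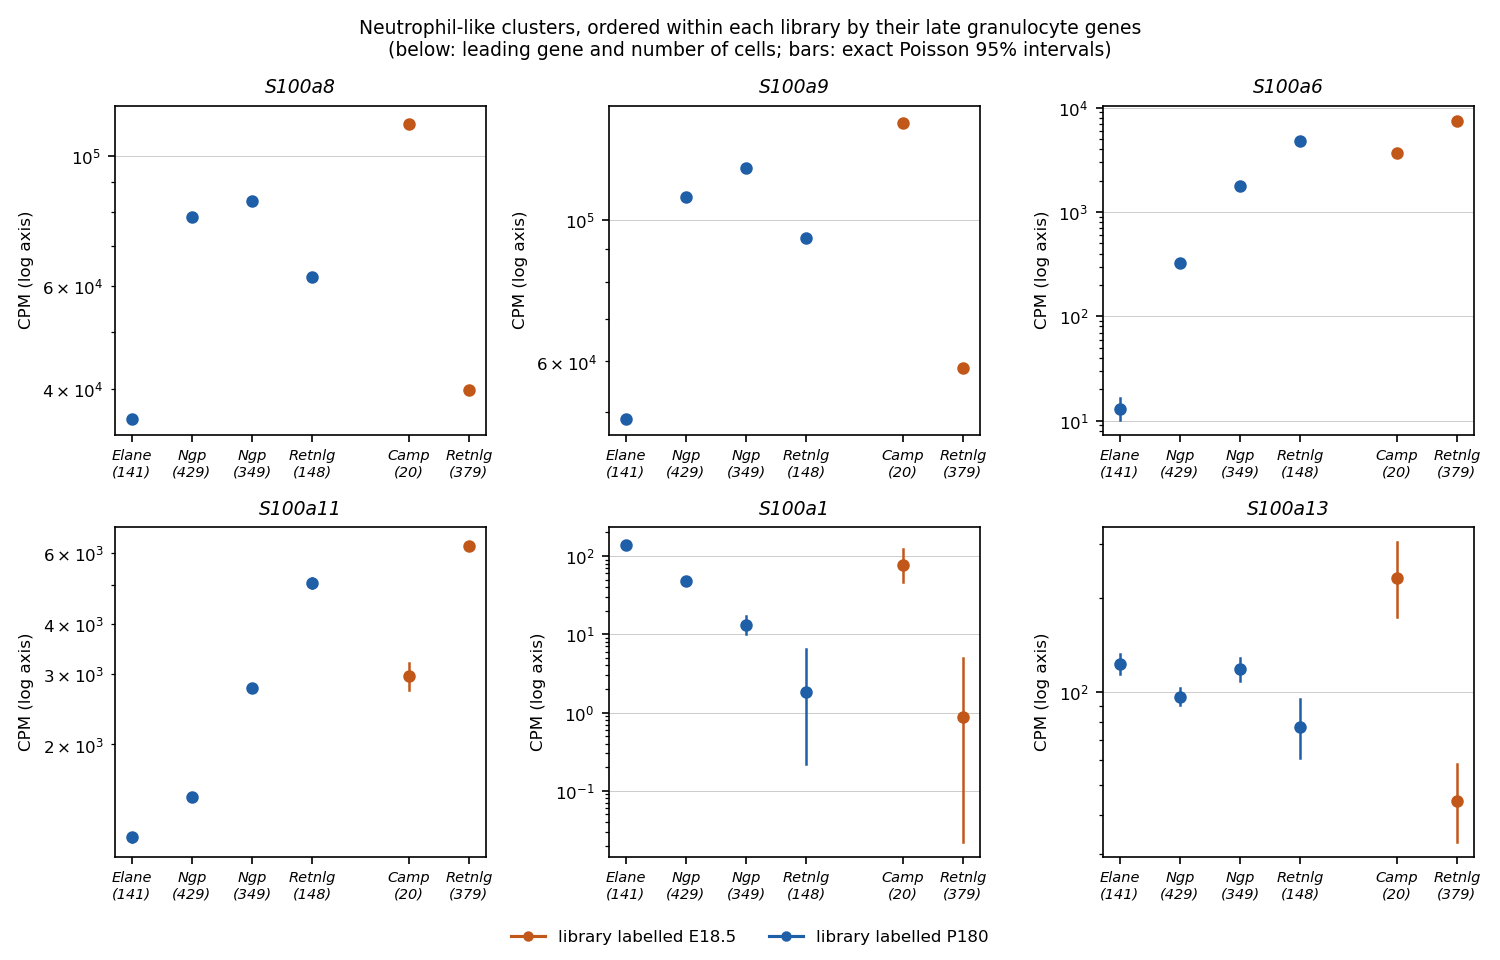
Level (CPM, log axis) of 6 S100 genes in the neutrophil-like clusters of each library, ordered by their late granulocyte genes and named by their leading gene with the number of cells; bars are exact Poisson 95% intervals. From first to last under label P180 S100a6 goes from 13.1 to 4833 CPM and S100a1 from 139.5 to 1.81 CPM, while S100a8 and S100a9 peak in the middle clusters.

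Between the Retnlg-led clusters of both libraries S100a6 and S100a11 differed less than over the whole class, and S100a8, S100a9 and S100a13 more. Over all neutrophil-like cells S100a6 was 8.63-fold lower (8.41 to 8.85) under label P180, at 782 against 6748 CPM, and S100a11 3.06-fold lower (2.98 to 3.13), at 1854 against 5666 CPM. Between the Retnlg-led clusters alone S100a6 was 1.53-fold lower (log2 ratio -0.61, -0.66 to -0.56) and S100a11 1.23-fold lower (-0.30, -0.35 to -0.25), so neither reached 2-fold. S100a8, S100a9 and S100a13 were 1.56-fold, 1.60-fold and 1.73-fold higher under label P180 there, against 1.29-fold, 1.30-fold and 1.4-fold over the class. None of the 5 members measured was beyond 2-fold in either direction in this comparison, where 11.9% of 2990 genes were higher and 22.7% lower. The Retnlg-led clusters still differed in stage: summed secondary granule genes were at 43266 CPM under label P180 and 1022 CPM under label E18.5. The part of this in the remaining differences was not tested.

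Outside neutrophil-like cells, S100a8 and S100a9 UMIs were present in every class of both libraries. Erythroid-like cells, which should lack both, held 224 CPM of S100a8 (220 to 229) and 313 CPM of S100a9 (308 to 318) under label P180. Of these cells 72.9% carried an S100a8 UMI and 83.8% an S100a9 UMI, at a median depth of 5242 UMIs, and 23.4% and 30.4% did so when each cell was thinned to 1000 UMIs. B cell-like cells labelled P180 (157 and 221 CPM, median depth 5991 UMIs; 76.6% and 85.6% of cells, 21.2% and 31.3% after thinning) and dendritic-like cells (124 and 187 CPM, median depth 23390 UMIs; 91.8% and 98.6% of cells, 16.4% and 23.3% after thinning) were below the erythroid-like levels. Endothelial-like cells (260 CPM, 221 to 303, and 311 CPM, 269 to 358) had intervals that hold them or overlap theirs, with a UMI in 69.1% and 71.8% of cells. Background of the library and expression were not told apart in these classes, and this was not tested. The corresponding ratios of 4.64 to 8.58 to the E18.5 label are therefore not read as a difference in expression. Under label E18.5 the same 3 classes held 16.8 to 33.8 CPM of S100a8 and 29.1 to 44.5 CPM of S100a9.

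The balance of these UMIs lay near that of the neutrophil-like cells of the same library. Erythroid-like cells had 1.4 S100a9 UMIs per S100a8 UMI (1.36 to 1.43), B cell-like cells 1.41 (1.24 to 1.62), dendritic-like cells 1.5 (1.26 to 1.79) and endothelial-like cells 1.2 (0.967 to 1.48), against 1.4 in neutrophil-like cells labelled P180. Per UMI of a neutrophil marker, S100a8 and S100a9 together had 1.66, 1.58, 1.66 and 1.63 UMIs in these classes, in that order, which is below the 1.95 of neutrophil-like cells. Cholangiocyte-like cells labelled P180 stood higher, at 475 CPM of S100a8 (425 to 530) and 533 CPM of S100a9 (479 to 591), with 1.12 S100a9 per S100a8 UMI (0.962 to 1.31) and 0.691 per neutrophil marker UMI. The marker value says little in this class. Under label E18.5 it held 857 CPM of neutrophil markers but only 0.0342 S100a8 and S100a9 UMIs per marker UMI. In the cluster labelled P180 15.9% of UMIs were of haemoglobin, and summed primary granule genes were at 1078 CPM against 32.5 CPM in erythroid-like cells. Their part in the calprotectin level was not tested. The cholangiocyte-like ratios to the E18.5 label, 44.2 for S100a8 and 28.7 for S100a9, are therefore not read as a difference in expression.

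Monocyte-like cells labelled P180 differed from these classes in level and in balance. S100a8 was at 4333 CPM (4285 to 4382) and S100a9 at 2890 CPM (2850 to 2930), both above the erythroid-like levels. UMIs of them were in 96.0% and 98.8% of cells at a median depth of 25495 UMIs, and in 55.0% and 38.6% after thinning. They held 0.667 S100a9 UMIs per S100a8 UMI (0.655 to 0.679), so S100a8 outnumbered S100a9, the reverse of the order in neutrophil-like cells. Under label E18.5 monocyte-like cells held 43.5 CPM (33.4 to 55.6) and 20.7 CPM (14 to 29.6), within the range of the other non-neutrophil classes of that library (6.02 to 47.2 and 13.5 to 44.5 CPM). Their balance was 0.476 (0.298 to 0.747), below 1 as under label P180 and below the 1.39 of neutrophil-like cells of their library. By level they could not be told apart from those other classes. By balance they stood apart from the neutrophil-like cells, but T cell-like (0.935, 0.690 to 1.27) and NK cell-like cells (0.837, 0.522 to 1.33) did so too. Of the 63 S100a8 UMIs of the monocyte-like cells labelled E18.5, 23.8% came from 1 cell. Set against these levels, S100a8 was 99.6-fold (77.8 to 130) and S100a9 140-fold (97.7 to 207) higher under label P180, the 2 largest member ratios measured.

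**Figure D4:**
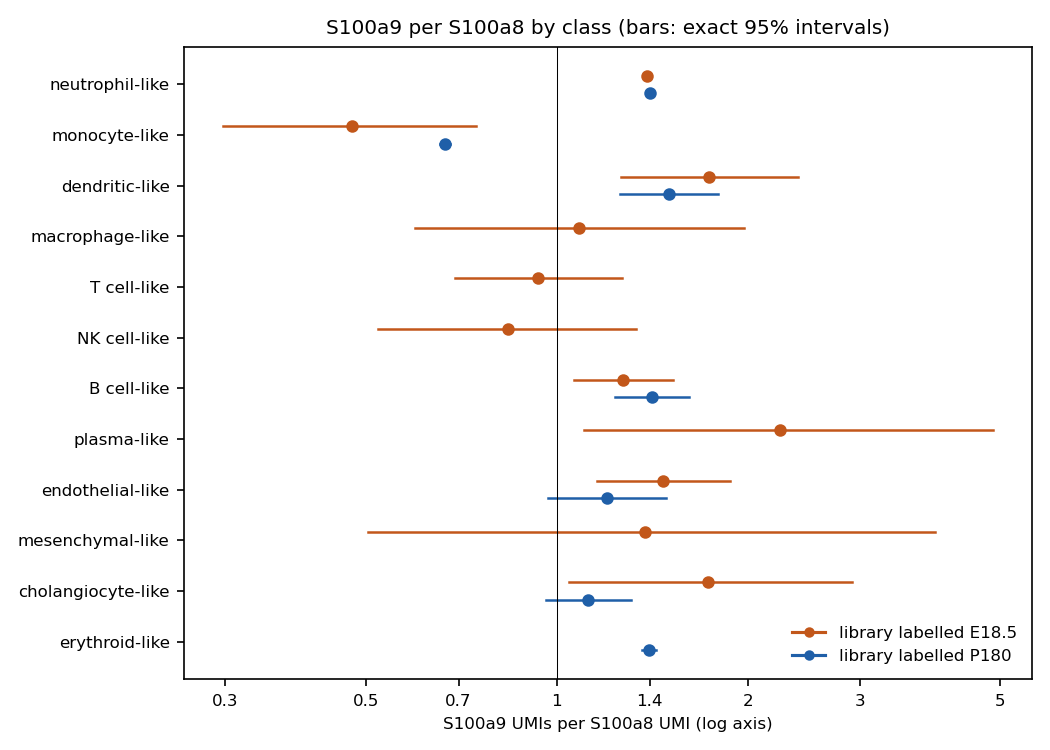
S100a9 UMIs per S100a8 UMI (log axis) in every class of at least 50 cells, under label E18.5 in orange and under label P180 in blue; bars are exact 95% intervals. Neutrophil-like cells sit at 1.39 and 1.4 and erythroid-like cells at 1.4, while monocyte-like cells sit below 1, at 0.476 and 0.667. T cell- and NK cell-like cells labelled E18.5 are also below 1, at 0.935 and 0.837, with intervals that hold 1.

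The monocyte-like cluster labelled P180 was mixed. Summed primary granule genes were at 3790 CPM in it, against 34.5 CPM under label E18.5, and at a finer clustering it split into 172 monocyte-like cells and 79 cells led by Mpo and Prtn3, which that clustering named neutrophil-like. The 172 cells held 5961 CPM of S100a8 and 4142 CPM of S100a9, with 0.695 S100a9 per S100a8 UMI (0.681 to 0.709), and 509 CPM of S100a4. The 79 cells held 2038 and 1123 CPM, a balance of 0.551 (0.528 to 0.576), and 77.2 CPM of S100a4. Ccr2, the chemokine receptor that marks classical monocytes, was at 448 and 144 CPM, and Elane at 184 and 1655 CPM, in that order. A balance below 1 was therefore measured in both sets. The E18.5-labelled class split at this clustering too, into 116 cells with a balance of 0.375 (0.216 to 0.629) and 57 cells. The 57 cells had a balance of 1.29 (0.426 to 4.06), from 7 S100a8 and 9 S100a9 UMIs. S100a8 was also uneven from cell to cell: the median monocyte-like cell labelled P180 had 17 UMIs, the 90th percentile was 437 and the highest 804.

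S100a4 marked monocyte-, T cell- and NK cell-like cells. Under label E18.5 it was at 2469 CPM in monocyte-like cells (2388 to 2551), 995 CPM in T cell-like cells (951 to 1040) and 789 CPM in NK cell-like cells (737 to 844), with a UMI in 96.0%, 52.1% and 67.6% of cells. It was at 147 CPM in dendritic-like, 38.5 CPM in B cell-like and 34.6 CPM in macrophage-like cells. It stayed under 18 CPM in neutrophil-, plasma cell-, endothelial-, mesenchymal- and cholangiocyte-like cells, with 0 UMIs in the 93 mesenchymal-like cells. Under label P180, monocyte-like cells (330 CPM) were the only class of at least 50 cells above 11 CPM.

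S100a4 was lower under label P180 in all 3 classes in which it could be compared. In monocyte-like cells it was at 330 against 2469 CPM, 7.49-fold lower (7.1 to 7.89), and the 172 cells of the finer clustering, at 509 CPM, were also below the E18.5-labelled level. In dendritic-like cells it was at 10.1 against 147 CPM, 14.6-fold lower (9.02 to 25.2). This rested largely on a dividing cluster of 60 cells labelled E18.5 (337 CPM): without it the level was 48.5 CPM, 4.81-fold above label P180 (2.88 to 8.53). In B cell-like cells 251 UMIs under label E18.5 stood against 0 of 2381337 UMIs under label P180, at least 30.6-fold lower against a floor of 3 counts over the class. Without a cluster of 134 cells labelled E18.5 this bound was 9.38-fold, and without 122 cells labelled P180 9.15-fold. These ratios over whole classes were among the lowest of all genes measured, at percentiles 1.09, 0.677 and 0.705.

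S100a6 was at least 2-fold lower under label P180 in all 6 shared classes, and no other member was. It was at 373 CPM under label E18.5 and 6.30 CPM under label P180 in B cell-like cells, 59.2-fold lower (35.8 to 106). In endothelial-like cells it was at 34.6 and 4.81 CPM (7.19-fold, 2.41 to 35.3, from 3 UMIs under label P180), and in dendritic-like cells at 332 and 72.3 CPM (4.6-fold, 3.81 to 5.58; 3.04-fold, 2.50 to 3.73, without the dividing cluster). In monocyte-like cells it was at 3033 and 1084 CPM (2.80-fold, 2.70 to 2.90). The 172 cells of the finer clustering held 1694 CPM, within 2-fold of the whole class labelled E18.5. That class split at the finer clustering too. Its 116 cells with Ccr2 at 778 CPM held 3579 CPM of S100a6, over 2-fold above the 172 cells. Its 57 cells with Ccr2 at 267 CPM held 1834 CPM, within 2-fold. In cholangiocyte-like cells S100a6 was at 76.9 and 32.6 CPM (2.36-fold, 1.51 to 3.86). Erythroid-like cells held 6.01 CPM, so the B cell- and endothelial-like levels labelled P180 were no higher than in a class that carries little S100a6. In T cell- and NK cell-like cells labelled E18.5, S100a6 reached 1712 and 2481 CPM.

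Within the B cell-like class the high S100a6 level rested on 1 cluster. A cluster of 134 cells labelled E18.5 with Sox5 and Agbl1 among its leading genes held 1882 CPM of S100a6 (1802 to 1965), against 93.5 CPM (83.3 to 105) and 23.4 CPM (17.3 to 30.8) in clusters of 756 and 418 cells. Without those 134 cells S100a6 was at 65.8 CPM under label E18.5, 10.4-fold above label P180 (6.24 to 18.9). The same cluster was highest in S100a10 (1042 against 383 and 286 CPM) and S100a4 (170 against 16.2 and 5.14 CPM). Under label P180, S100a6 was at 4.79 CPM (2.07 to 9.45) in 122 cells with Vpreb3, a gene of B cell precursors, among their leading genes, and at 9.82 CPM (3.95 to 20.2) in 79 cells with Ms4a1 among theirs. Even the lowest cluster labelled E18.5 was therefore above the cluster of precursors, while its interval overlapped that of the 79 cells.

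A cluster of 130 cells labelled E18.5, led by Cd74 and other class II antigen presentation genes and left without a name, held 1109 CPM of S100a4 (1055 to 1166) and 1529 CPM of S100a6 (1466 to 1595). The dendritic-like cluster of 155 cells of that library held 48.5 CPM and 220 CPM, and its dividing neighbour of 60 cells 337 CPM and 549 CPM. T cell-like cells were also unequal: S100a4 was at 1205 CPM (1147 to 1265) in a cluster of 255 cells with Lef1 among its leading genes and at 523 CPM (467 to 584) in 106 cells led by Ccl5. S100a4 and S100a6 therefore varied within classes as well as between them.

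S100a10, the annexin A2 partner, was broadly present. Under label E18.5 it was at 1327 CPM in T cell-like cells (1276 to 1378), 1076 CPM in plasma cell-like cells (1031 to 1123), 975 CPM in NK cell-like cells, 818 CPM in monocyte-like cells and at 306 to 503 CPM in B cell-, dendritic-, endothelial-, mesenchymal- and cholangiocyte-like cells. Macrophage-like cells were low, at 75.5 CPM (61.0 to 92.4). Neutrophil-like cells held 21 UMIs (15.4 CPM) under label E18.5 and 43 UMIs (2.05 CPM) under label P180, and erythroid-like cells 2.19 CPM. Only 3.26% and 3.66% of neutrophil-like cells carried a UMI. Across the libraries it was 1.75-fold lower under label P180 in B cell-like, 1.38-fold lower in dendritic-like, 1.07-fold lower in monocyte-like and 1.30-fold higher in endothelial-like cells, all within 2-fold. In cholangiocyte-like cells it was 2.79-fold lower (2.30 to 3.40), at 170 against 474 CPM.

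Anxa2, the partner that S100a10 binds, did not share its absence from neutrophil-like cells. Anxa2 was at 728 CPM there under label E18.5 and 253 CPM under label P180. It was at 527 and 501 CPM in monocyte-like cells and at 2.14 CPM in erythroid-like cells. Ahnak, a large scaffold protein that binds the complex of both, was low in neutrophil-like cells too, with 14.7 and 0.762 CPM there, 668 and 203 CPM in monocyte-like cells and 495 CPM in T cell-like cells.

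S100a11 was highest in neutrophil-like cells (5666 and 1854 CPM). Dendritic-like cells held 1107 CPM (1074 to 1141) under label E18.5 and 1154 CPM (1103 to 1207) under label P180, a ratio of 1.04 (0.987 to 1.10). Monocyte-like cells held 939 and 1010 CPM, a ratio of 1.08 (1.01 to 1.14). Endothelial-like cells (186 and 160 CPM) and B cell-like cells (174 and 124 CPM) also differed by less than 2-fold, while cholangiocyte-like cells differed 2.49-fold (2.15 to 2.88), at 766 and 308 CPM. Erythroid-like cells were lowest, at 11.5 CPM with a UMI in 7.02% of cells. Whether this is expression or background of the library was not tested.

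S100a16 was the member with the fewest classes. It was at 224 CPM (209 to 239) in endothelial-like cells under label E18.5 and 279 CPM (239 to 323) under label P180, a ratio of 1.25 (1.05 to 1.47). Cholangiocyte-like cells held 145 CPM (130 to 161) and 31.1 CPM (19.3 to 47.5), 4.66-fold lower (3 to 7.63) under label P180, and mesenchymal-like cells labelled E18.5 36.0 CPM (20.1 to 59.3). The 43 mesenchymal-like cells labelled P180, too few to count as a class here, held 1 S100a16 UMI (2.34 CPM, 0.0593 to 13.1). In all other named classes of at least 50 cells it was under 3 CPM, with 0 UMIs in macrophage-like cells labelled E18.5 and in monocyte- and dendritic-like cells labelled P180. The 4 endothelial-like clusters labelled E18.5 were alike in it, between 199 and 271 CPM. S100a10 was not: it was at 541 CPM in the cluster of 216 cells with Rspo3 and Vwf among its leading genes and at 167 to 244 CPM in the others.

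S100a1 and S100a13, which lie head to head, were highest in different classes. S100a1 was highest in cholangiocyte-like cells labelled E18.5 (167 CPM, 151 to 185), followed by endothelial-like cells (82.1 CPM, 73.4 to 91.5), and was at 2.54 and 3.22 CPM in T cell- and B cell-like cells. S100a13 was highest in NK cell-like (235 CPM, 207 to 266), endothelial-like (222 CPM, 208 to 237) and T cell-like cells (200 CPM, 181 to 221), the intervals of the first 2 overlapping, and lowest in B cell-like cells (48.7 CPM). Across the 18 classes of both libraries the correlation of log2(CPM + 10) of S100a1 and S100a13 was r = 0.40, but 0.10 over the 11 classes labelled E18.5 and 0.71 over the 7 labelled P180.

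Between the libraries S100a1 was lower under label P180 in cholangiocyte-like cells, at 35.5 against 167 CPM (4.71-fold, 3.12 to 7.44), and higher in neutrophil-like cells, at 62.3 against 13.9 CPM (4.47-fold, 2.85 to 7.45). The second ratio was 2.53 (1.61 to 4.24) without the Elane-led cells, and without the 20 Camp-led cells it rested on 1 UMI under label E18.5. The clusters of the latter class gave 139.5 CPM in Elane-led cells and 1.81 and 0.885 CPM in the Retnlg-led cells of each library. In endothelial-, dendritic- and monocyte-like cells the S100a1 ratios were 0.644, 0.661 and 1.2. S100a13 was lower in cholangiocyte-like cells (23.7 against 97.5 CPM, 4.12-fold, 2.48 to 7.32) and within 2-fold in the other 5 classes, with 130 against 222 CPM in endothelial-like and 49.1 against 48.7 CPM in B cell-like cells.

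Cholangiocyte-like cells were the class in which most members were lower under label P180. All 6 lower ratios there (S100a1, S100a6, S100a10, S100a11, S100a13 and S100a16) lay between percentiles 12.1 and 34.9 of the genes measured, whose median log2 ratio was -0.79. The 98 cells labelled P180 had a median of 2442 UMIs against 10526, Alb and Ttr, genes of hepatocytes, among their leading genes, and 6020 CPM of summed cholangiocyte markers against 23155 CPM. Which part of the lower S100 levels moves with these values was not tested.

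The other S100 genes were nearly silent. Of 10 further genes listed, 9 were in the gene table, and S100pbp, which encodes a protein that binds S100P and is not itself an S100 protein, alone reached 50 UMIs in a shared class. S100b, known from glia, was at 34.1 CPM (23 UMIs) in cholangiocyte-like cells labelled P180 and at 3.72 CPM (9 UMIs) in those labelled E18.5. Among 19 listed binding partners, the numbers higher and lower under label P180 among those measured were 1 and 5 of 12 in B cell-like, 2 and 2 of 13 in monocyte-like, 3 and 2 of 12 in neutrophil-like, 0 and 1 of 13 in dendritic-like, 2 and 3 of 15 in endothelial-like and 1 and 7 of 15 in cholangiocyte-like cells. The shares over all genes to set beside these partner counts are given with the member ratios. Ahnak had the lowest ratio in B cell-like cells (13.4 against 228 CPM), dendritic-like cells (140 against 284 CPM) and cholangiocyte-like cells (11.8 against 109 CPM). Anxa1, which S100a11 binds, was lowest in monocyte-like (211 against 697 CPM) and endothelial-like cells (4.81 against 22.9 CPM), and Anxa2 in neutrophil-like cells. The highest ratios belonged to the phosphatase Ppp5c or to Cacybp in 5 of the 6 classes, with Cacybp at 190 against 85.6 CPM in monocyte-like cells.

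The receptors were mostly lower under label P180 in neutrophil-, monocyte- and B cell-like cells. Of those measured, 7 of 10 in neutrophil-like and 6 of 10 in monocyte-like cells were at least 2-fold lower, and 1 in each was higher. Medians were -1.72 and -1.12 on the log2 scale beside 0.46 and 0.44 over all genes. Of all genes, 18.1% and 9.01% were lower and 35.8% and 29.6% higher in these classes, and the neutrophil-like class held different stages in the 2 libraries. In B cell-like cells 4 of 7 receptors were lower and 2 higher (median -1.08), beside 18.2% and 23.4% of all genes. Lower and higher were 2 and 0 of 7 in dendritic-like, 1 and 0 of 6 in endothelial-like and 2 and 1 of 5 in cholangiocyte-like cells. The shares over all genes there are given with the member ratios. Tlr4, the receptor of calprotectin, was at 89.6 CPM in neutrophil-like cells under label E18.5 and 23.3 CPM under label P180, at 60.7 and 38.5 CPM in endothelial-like cells and at 20 and 20.5 CPM in monocyte-like cells. Alcam had the lowest ratio in neutrophil-like cells (45.7 against 797 CPM) and Bsg the highest (147 against 41.1 CPM). Ager, the receptor for advanced glycation end products, did not exceed 5.92 CPM in any class.

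Of 10 regulators listed for the family, 5 were lower and 1 higher under label P180 in both neutrophil- and monocyte-like cells. Cebpe, which drives secondary granule genes, was the one that was higher, at 617 against 77.8 CPM in neutrophil-like cells. Cebpb was lowest there, at 233 against 2771 CPM. Over all genes measured, 18.1% were lower and 35.8% higher in neutrophil-like cells, and 9.01% and 29.6% in monocyte-like cells. The neutrophil-like class held different stages in the 2 libraries, and the part of this in these values was not tested. In the other classes 0 of 7 regulators measured in B cell-like, 0 of 8 in cholangiocyte-like, 0 of 9 in dendritic-like and 0 of 7 in endothelial-like cells were higher. Of all genes, 23.4%, 7.82%, 1.58% and 4.9% were higher in these classes, so few would be looked for in lists of this size. In the same order 3, 8, 0 and 1 regulators were lower, beside 18.2%, 43%, 6.04% and 10.1% of all genes. A list of 18 other EF-hand genes held Plek, whose protein has no EF hand. With it left out, which was done after its value was seen, the counts higher and lower were 2 and 4 of 15 measured in neutrophil-like and 1 and 0 of 15 in monocyte-like cells. Chp1 was lowest in neutrophil-like cells, at 55.9 against 153 CPM, and Lcp1 in monocyte-like cells, at 378 against 560 CPM. Tesc was highest in neutrophil-like cells, at 33.5 against 2.20 CPM, and Calm3, a calmodulin gene, in monocyte-like cells, at 271 against 128 CPM.

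Across the 18 classes, S100a8 and S100a9 followed each other most closely of all pairs of members (r = 0.99), then S100a6 and S100a11 (0.73) and S100a4 and S100a6 (0.71). After the first pair the order differed within each library: the next was S100a8 and S100a11 (0.73) over the 11 classes labelled E18.5 and S100a6 and S100a8 (0.84) over the 7 labelled P180. S100a9 and S100a10 ran most strongly against each other (-0.67). These are descriptions over class sums that share a library, its depth and its background, and no test was made of them. Among 12431 other genes, those with the pattern most like S100a8 were Stfa2l1 (r = 0.96), Camp and Ngp, and for S100a9 the same 3 genes in another order. S100a4 was most like Ms4a6b (0.89), Adgrg5 and Hopx, S100a6 like Stx11 (0.89), 1600014C10Rik and Hcst, and S100a10 like Tmsb10 (0.93), Crip1 and Snd1. S100a11 was most like Card19 (0.90), Atg3 and Mboat7, S100a13 like Tpst2 (0.86), Rapgef2 and Nab1, S100a1 like Tmem205 (0.92), Capns1 and Nfic, and S100a16 like Bend7 (1.00), Morc4 and Tcim.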

How the data were processed

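Single-cell RNA was measured in 2 libraries, 1 per stage. The authors deposited UMI counts for each gene in each barcode; the file headers name Cell Ranger 7.1.0 as their source. The submitters' processing notes also name fastp, Trimmomatic, Seurat, edgeR and the mm10 build, without a role for each.

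From these counts, barcodes with at least 200 genes, 500 UMIs and at most 25% mitochondrial UMIs were kept. Scrublet's own threshold called 79 and 0 doublets, so the highest-scoring barcodes were left out instead, at 0.8% per 1000 barcodes (178 and 735). Each library was clustered on its own with scanpy 1.11.5 (2000 variable genes, 30 components, 15 neighbours, Leiden resolution 1), with the S100 genes left out. A cluster was named from its 100 leading genes where at least 3 markers of a class were among them. That number was set after the clusters were seen, and 50 leading genes were tried as an alternative. Ratios were also computed with each cluster of a class left out in turn, a choice made after seeing the data. "Led by" refers to the leading genes in this sense.

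Counts were summed per class of at least 50 cells and divided by the class total (CPM). A ratio was computed for genes with at least 50 UMIs in either library, and 2-fold was the limit for calling it higher or lower. Intervals came from scipy 1.17.1. A gene at 0 was set against a floor of 3 counts over the class. Shares of cells were also computed after thinning to 1000 UMIs. There was no test, because cells of 1 library are not replicates. The scripts were tested on simulated data. All 9 members are named, along with the genes with the highest and lowest ratio of each list and the 3 genes most like each member in log2(CPM + 10), among genes with at least 200 UMIs. Other genes named in passing (Anxa2, Ahnak, Tlr4, Ager, Ccr2, S100b, Cacybp in monocyte-like cells) were chosen after their values were seen. The members and gene lists were chosen with earlier results of these data known. Alternatives covered filters, clustering, scaling, minimum counts and depth.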

Additional observations from a re-analysis of the deposited data

Results flagged for a closer look

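S100a1 moved in opposite directions between the libraries in 2 classes, which is what drew attention to it. Its log2 ratio, library labelled P180 over that labelled E18.5, was 2.16 in neutrophil-like cells and -2.24 in cholangiocyte-like cells. With 1 library per stage this difference was not tested. In the neutrophil-like class, 19 UMIs with the E18.5 label stood against 1308 with the P180 label, and the Elane-led cluster with its high S100a1 level was found under the P180 label. In the cholangiocyte-like class, 405 UMIs stood against 24, and the median log2 ratio of all genes measured was -0.79. The part of these in the result was not tested.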

How the results depend on the processing

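No paired analysis was possible because there was 1 library per stage, and for the same reason no library could be left out. The 11 higher ratios became 7 with a mitochondrial limit of 10%, 7 with at least 500 genes per barcode, 6 with cells thinned to 1000 UMIs and 1 without cells that carry a neutrophil marker UMI, and 7 when names came from 50 leading genes, which was chosen after seeing the data. The 15 lower ratios became 7 with at least 500 genes, 8 at resolution 2, 8 after thinning and 2 without cells that carry a neutrophil marker UMI. These settings also changed how many classes could be compared: 4 of 6 with the 10% limit, with 500 genes and with 50 leading genes, 5 at resolution 2, and the neutrophil-like class alone without marker-carrying cells. After thinning all 6 remained, but 29 ratios reached the minimum of UMIs in place of 45. The number of members highest in the same shared class was 6 or 7 wherever more than 1 class was shared.

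The log2 balance of S100a9 to S100a8 in neutrophil-like cells, 0.0135, was 0.0790 (0.0614 to 0.0967) with the 10% limit and -0.0056 (-0.0371 to 0.0260) after thinning. Between the Retnlg-led clusters, a comparison chosen after seeing the data, it was 0.0393 (0.0171 to 0.0615). With the 10% limit and between the Retnlg-led clusters the interval thus excluded 0. No member ratio of at least 2-fold changed sign under these settings. Ratios within 2-fold changed sign 22 times, in 11 of the 45 ratios compared; with the 10% limit these included S100a8, S100a9 and S100a13 (-0.31) in neutrophil-like cells. Calls against the 2-fold limit changed 12 times under them. Scaling by the median of ratios accounted for 5, with log2 ratios of -1.09 for S100a10 in B cell-like cells, and 1.04, 1.06, 1.16 and -0.94 for S100a8, S100a9, S100a13 and S100a11 in neutrophil-like cells. S100a13 in endothelial-like cells passed the lower limit under 3 filters (-1.03 to -1.06), S100a1 there at -1.08 with the 10% limit, and S100a6 in monocyte-like cells was at -0.83 at resolution 2. Between the Retnlg-led clusters S100a6 was at -0.61 and S100a11 at -0.30, both short of the limit. Leaving out each cluster of a class in turn, also chosen after seeing the data, changed 5 of 120 calls, moved 22 ratios by over 1.5 times and changed 7 signs. The 5 were S100a10 in B cell-like cells without the cluster of 756 or of 418 cells (-1.04 and -1.05) and in dendritic-like cells without that of 155 (-1.08), S100a11 in B cell-like cells without 79 cells labelled P180 (-1.005), and S100a13 in neutrophil-like cells without the 20 Camp-led cells (1.27). With under 50 UMIs in both libraries, S100a16 was not compared in 4 of 6 classes, S100a4 in 3, and S100a1 and S100a10 in 1 each. The S100a6 ratio in endothelial-like cells rests on 3 UMIs under label P180.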
